A study of Mus musculus with 12 samples.

Results

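The 12 RNA libraries of fat cells transfected with a let-7 mimic or a negative control fall into 2 runs of sample identifiers, and the response to the mimics was compared between them. The first run, called series 1, has purely numeric identifiers, and the second, called series 2, has identifiers that begin with A. Each run holds 6 samples, which are 2 negative controls, 2 samples with a let-7d-5p mimic and 2 with a let-7e-5p mimic, so that all 12 samples of the study enter. Members were chosen by identifier and title alone, with both mimics pooled as 4 samples against 2 controls in each series. All samples came from wild-type male C57BL/6 mice, 8 weeks old and fed chow, whose epididymal stromal vascular cells had been turned into adipocytes with rosiglitazone, insulin, dexamethasone and IBMX. Mimic or control was given by reverse transfection on day 4 and the cells were harvested on day 7, in both series. The replicates are numbered 1 and 2 in series 1 and 3 and 4 in series 2. What sets the runs apart is not given in the sources used here, so culture, animals, library preparation and sequencing cannot be told apart as the source of a difference between them.

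MicroRNAs of the let-7 family load into Argonaute proteins and pair through their seed, bases 2 to 8, with sites in the 3' untranslated regions (UTRs) of messages and so lower message stability and translation. The family rises as cells differentiate and holds down growth and fetal genes, such as the chromatin protein gene Hmga2, and let-7 also acts on Dicer1, the enzyme that cuts microRNA precursors. A mimic is a synthetic duplex that adds the mature microRNA to the cell. Both mature mouse sequences are shown because the shared seed is the reason to take the mimics together; they are from RefSeq on GRCm38.p6, 5′ to 3′, with the seed in capitals.
mmu-let-7d-5p: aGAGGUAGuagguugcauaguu
mmu-let-7e-5p: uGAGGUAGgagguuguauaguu
The first lies at chr13:48536078-48536099 on the minus strand and the second at chr17:17830366-17830387 on the plus strand. They differ at 3 of 22 bases, given as the let-7d base, the position from the 5′ end and the let-7e base: A1U, U9G and C16U. None of these positions is in the seed. The complement of the seed in a message reads CTACCTC, and a site that also has A opposite base 1 reads CTACCTCA.

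Total counts per sample ran from 15071299 to 25610151 in series 1 and from 23744175 to 33396316 in series 2, over 15754 genes. The median standard error (SE) of a gene's log2 effect was 0.104 in series 1, 0.100 in series 2 and 0.145 for the difference between them. Levels are CPM, counts scaled to the size of the library. Adipocyte marker levels differed between the controls of the series: 29 of 30 adipocyte identity genes were measured, with Lep not analysed here, and their summed level was 30600 to 33100 CPM in the series 1 controls and 6790 to 9250 CPM in the series 2 controls. With mimic it was 31300 to 33400 and 7060 to 8770 CPM. In RNA of whole cultures, fewer cells of a type and less RNA per cell cannot be told apart. The labels do not say whether replicates were separate cultures or animals, so the p-values speak of the spread among these samples alone, which may be technical.

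A gene is called here at an adjusted p under 0.05 in edgeR's quasi-likelihood test over all 15754 genes, and effects are log2 of mimic against control. In series 1, 805 genes rose (5.11% of those tested) and 1090 fell (6.92%), 12% in all. In series 2, 329 rose (2.09%) and 538 fell (3.42%), 5.5% in all. Of the series 1 calls 42.5% were higher, and with library totals in place of TMM scaling, 58.1% were. The series 1 count was 1138 without control 1, 1070 without control 2 and 1231 without let-7d 2, and the series 2 count was 224 without control 4. Of the calls, 446 went the same way in both series, 157 higher and 289 lower, which is 23.5% of the series 1 calls and 51.4% of the series 2 calls, and 5 genes were called in opposite directions. Without control 4, 147 genes were called the same way in both. Of the genes called in series 1, 84.5% had the same sign in series 2, and of those called in series 2, 91.7% had the same sign in series 1, against 63.3% of all genes. Across the 11345 genes whose average log2 CPM reached 2, the effects of the 2 series had a Pearson correlation of 0.478 and a Spearman correlation of 0.467. With 1 sample left out, this Pearson correlation ran from 0.373 to 0.517. Across all 15754 genes the correlations were 0.28 (Pearson) and 0.36 (Spearman). These are descriptions across genes, which are not independent.

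**Figure D1:**
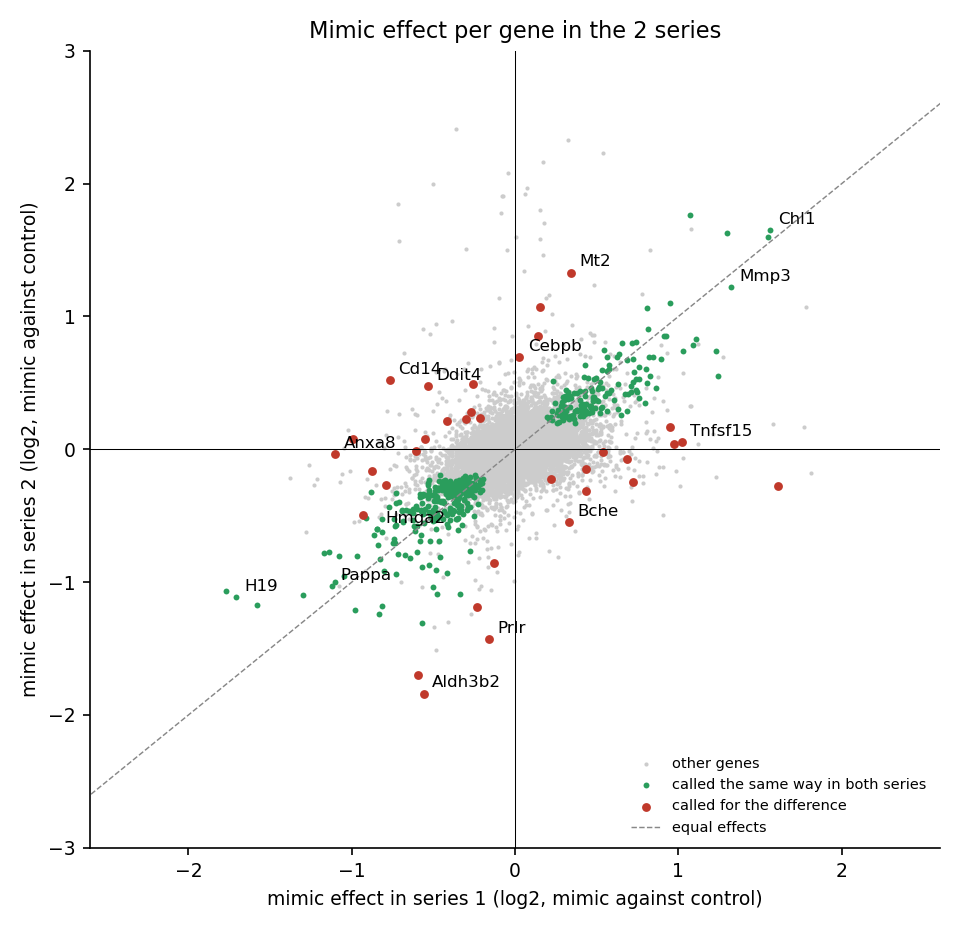
Mimic effect per gene in series 1 (horizontal) and in series 2 (vertical), both log2 of mimic against control, for the 11345 genes whose average log2 CPM reached 2; the dashed line marks equal effects. The genes called the same way in both series, in green, fill the upper right and lower left, and the genes called for the difference, in red, lie off it on either side.

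The test of the difference itself, series 2 effect minus series 1 effect, called 36 genes, or 0.229% of those tested, 18 higher (0.114%) and 18 lower (0.114%). In all, 1860 genes were called in 1 series and not in the other, and 26 of those were called for the difference. Of the 36, 17 were called in series 1 and not in series 2, 9 in series 2 and not in series 1, 5 in both the same way and 5 in both in opposite directions. The absolute log2 difference of the 36 ran from 0.438 to 4.31 with a median of 0.773, and 1958 genes had an unadjusted p under 0.05 for the difference. Single controls moved this count: it was 221 without control 1, 6 without control 2, 12 without control 3 and 8 without control 4. Among mimic samples it was 20 without let-7d 1, 11 without let-7d 2, 9 without let-7e 1, 13 without let-7e 2, 146 without let-7e 3 and 13 without let-7e 4. With 1 control left in a series, that control is assumed to vary like the other groups.

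Hmga2 and Dicer1, both known let-7 targets, fell in both series. Hmga2, an architectural chromatin protein of fetal tissue, was at 13.9 and 14.1 CPM in the series 1 controls and at 6.57, 7.67, 7.66 and 9.12 CPM with mimic. In series 2 it was at 22.8 and 29.0 CPM in the controls and at 14.3, 16.6, 18.6 and 18.6 CPM with mimic. The groups did not overlap in either series, and the log2 effects were −0.844 (SE 0.143, adjusted p = 0.00127) and −0.601 (SE 0.118, adjusted p = 0.00734). The difference of the effects was 0.243 (SE 0.187, adjusted p = 0.641). Dicer1 was at 65.9 and 63.3 CPM in the series 1 controls and at 44.5, 43.6, 48.8 and 47.0 CPM with mimic, and at 36.5 and 44.5 against 27.2, 30.3, 29.1 and 29.0 CPM in series 2. It fell by 0.491 (SE 0.0752, adjusted p = 0.000648) and by 0.485 (SE 0.0761, adjusted p = 0.00138) on the log2 scale, and the difference was 0.00518 (SE 0.109). Without control 4, the series 2 calls of both genes were lost, at adjusted p = 0.204 for Hmga2 and 0.0563 for Dicer1.

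A list of 64 let-7 targets from the literature, 60 of them measured, had 15 members lower and 3 higher in series 1, with a median effect of −0.0844, and 11 lower and none higher in series 2, with a median of −0.159. Without control 4, 2 members were called lower in series 2, and 1 was higher in series 1 without control 1, control 2 or let-7d 2. No member was called for the difference by edgeR or limma-voom and 1 by DESeq2's Wald test. EdgeR called 0.229% of all genes for the difference. An unadjusted p under 0.05 in edgeR was found for 11 of 60, against 1958 of all 15754 genes. The median over all genes was 0.000404 in series 1 and −0.00506 in series 2. Called lower were 6.92% of all genes in series 1 and 3.42% in series 2, and called higher 5.11% and 2.09%. Nras, a RAS family growth regulator, fell by 0.488 and 0.385, and the transcription factor gene E2f6 by 0.695 and 0.465; both are named here after their values were seen. The 4 members with the smallest p for the difference were Cdc34, a ubiquitin-conjugating enzyme, Limd2, a LIM domain protein, Rictor, a subunit of the mTORC2 kinase, and Acvr1c, an activin receptor. Cdc34 fell by 0.469 in series 1, where the controls were at 101 and 114 CPM and the mimic samples at 76.6 to 80.5, and the effect in series 2 was −0.0859, with 85.4 and 94.6 CPM against 81.3 to 88.0. Its difference was 0.383 (SE 0.0895, adjusted p = 0.0988). Limd2 fell by 0.536 and 0.267, with a difference of 0.269 (adjusted p = 0.263), and Acvr1c rose by 0.345 in series 1 with −0.137 in series 2, a difference of −0.481 (adjusted p = 0.199). Rictor rose in series 1 by 0.371 from 31.3 and 32.5 CPM to between 40.1 and 42.6, and in series 2 it was 41.2 and 41.8 against 43.0 to 46.5 CPM, an effect of 0.109 (adjusted p = 0.301).

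Sites are shown for genes that fell in both series (Hmga2, Pappa), for listed targets called in series 1, lower for Cdc34 and higher for Rictor, and for genes called for the difference (Thrsp, Nlrc5), so that the letters can be compared. Each is a stretch of the 3' UTR, 5′ to 3′, from GENCODE vM21 transcripts on GRCm38, with the match to the seed and the A opposite base 1 in capitals.
Hmga2: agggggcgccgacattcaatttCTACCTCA
Pappa: aaatggggatacaactagttacCTACCTCA
Cdc34: cgtgtgggcctcaggcgacagaCTACCTCA
Rictor: ttttagacattcattttaaacaCTACCTCA
Thrsp: gtataaagcagggatgctgtatCTACCTCA
Nlrc5: accactaggtctagcctacccaCTACCTCA
The Hmga2 site lies at chr10:120364224-120364253 on the minus strand, Pappa at chr4:65355976-65356005 on the plus strand, Cdc34 at chr10:79688105-79688134 on the plus strand and Rictor at chr15:6798074-6798103 on the plus strand. The Thrsp site lies at chr7:97413173-97413202 on the minus strand and the Nlrc5 site at chr8:94527112-94527141 on the plus strand. The same 8 letters thus stand in a gene that rose in series 1 (Rictor), in one that fell in both series (Hmga2) and in one that rose in series 1 with a value below 0 in series 2 (Nlrc5). A match is a description, not a shown site of action. The longest annotated 3' UTR of Dicer1 holds neither the 7 nor the 8 letters.

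Over all 13547 genes with an annotated 3' UTR, 508 held an 8-base site, 919 a 7-base site and no 8-base site, and 12120 neither. Of the 508 genes with an 8-base site, 71 fell and 25 rose in series 1 and 50 fell and 6 rose in series 2. Of the 12120 genes with neither, 7.1% fell and 5.69% rose in series 1, and 2.99% fell and 2.45% rose in series 2. The median effect of genes with an 8-base site was −0.0556 in series 1 and −0.0959 in series 2. The median of their difference was −0.0301. Genes with a 7-base site had medians of −0.061 and −0.0837, and genes with neither had −0.000853 and 0.00172. The effect was below 0 for 61.0% of the 8-base genes in series 1 and for 70.1% in series 2, against 50.2% and 49.6% of the genes with neither. The median 3' UTR was 2440 bases with an 8-base site and 1070 bases with neither, and the part of this length difference in the shift was not tested.

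The shift was seen in each mimic sample. For genes whose average log2 CPM reached 2, it was measured as the median log2 deviation from the controls of the same series, in genes with an 8-base site minus genes with neither. It was −0.0654 and −0.0806 with let-7d and −0.0525 and −0.0485 with let-7e in series 1, and −0.0941 and −0.073 with let-7d and −0.0958 and −0.08 with let-7e in series 2. The controls lay at −0.0179 and 0.0179 in series 1 and at −0.0199 and 0.0199 in series 2, mirrored because each is taken against the mean of both. All 8 mimic samples lay below all 4 controls. The series overlapped, since let-7d 2 of series 1 was lower than let-7d 4 and let-7e 4 of series 2.

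**Figure D2:**
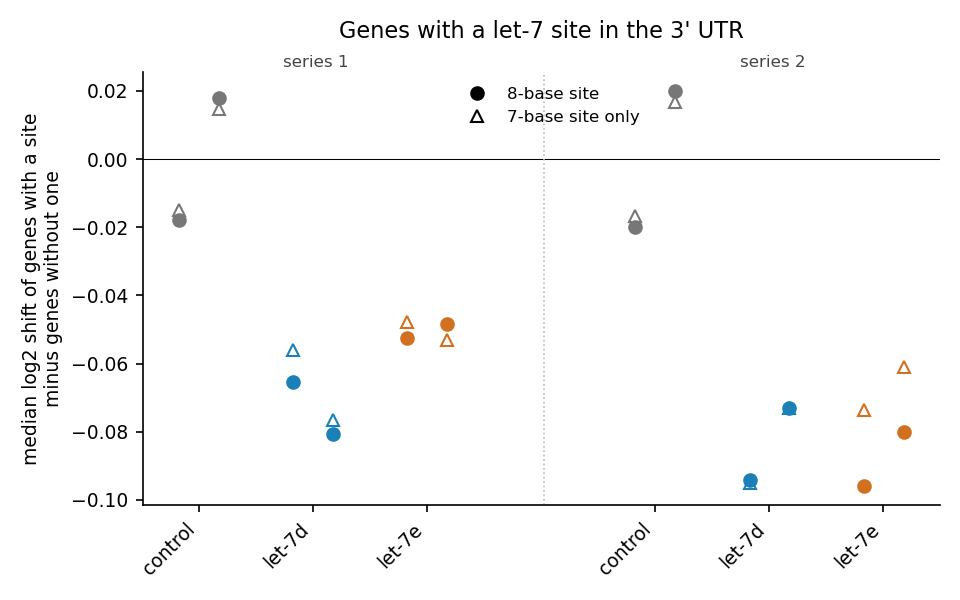
Median log2 shift of genes with a let-7 site minus genes without one (vertical) in each of the 12 samples (horizontal, by arm and series), for 8-base sites (filled circles, 419 genes) and 7-base sites (open triangles, 761 genes), each against the controls of the same series. All mimic samples lie below the controls, at −0.0958 to −0.0485 for 8-base sites.

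A 7- or 8-base site was present in 30.6% of the 284 genes with a 3' UTR that fell in both series, in 15.1% of the 779 that fell in series 1 and were not called in series 2, and in 20.4% of the 206 with the reverse pattern. It was present in 4.52% of the 155 genes that rose in both series and in 10.5% of all genes. For genes that rose in series 1 and were not called in series 2 it was 9.98%, and for the reverse 7.01%. The median 3' UTR of the sets that fell was 1780, 994 and 1690 bases in the order given. It was 1170, 1780 and 737 bases for those that rose, and 1190 for all genes. The part of UTR length in these shares was not tested. Among the 33 genes with a 3' UTR called for the difference, 5 held a site, or 15.2%: Prlr, Thrsp, Oas2 and Nlrc5 were 4 of them, and these 4 had a negative difference. These are shares of called genes, given as a description with no test. They rest on calls, and the series 2 calls move with control 4, without which 224 genes were called in that series in place of 867.

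Genes that rose in both series included 2 matrix metalloproteases and 2 chemokines. The list of 19 matrix metalloproteases as a whole had 2 higher and 4 lower in series 1 and 3 higher and 3 lower in series 2, with medians of −0.0668 and −0.00985. Over all genes, 5.11% were higher and 6.92% lower in series 1, and 2.09% and 3.42% in series 2. Mmp14, a membrane-bound protease, fell by 0.519 and 0.490. Without control 4, 1 member was called higher and 1 lower in series 2. Mmp3, a metalloprotease that cuts matrix proteins, was at 18.4 and 14.5 CPM in the series 1 controls and at 43.9, 44.4, 37.2 and 41.5 CPM with mimic, a log2 effect of 1.32 (SE 0.167, adjusted p = 0.000156). In series 2 it was at 55.9 and 40.6 against 136, 105, 117 and 92.0 CPM, an effect of 1.22 (SE 0.143, adjusted p = 0.00013). The difference was −0.104 (SE 0.215). The groups did not overlap in either series, which the naming rule required of these genes. Mgp, an inhibitor of calcification, rose by 0.911 and 0.852, with series 1 controls at 69.8 and 75.4 CPM against 131 to 146, and series 2 controls at 319 and 416 against 527 to 805 CPM. Chl1, a neural adhesion molecule, had effects of 1.56 and 1.65, and Cxcl5, a neutrophil chemokine, had 1.55 and 1.60. The collagenase gene Mmp13 had 1.30 and 1.63, Crocc2 1.07 and 1.76, the monocyte chemokine gene Ccl8 0.951 and 1.10, and Ace, which makes angiotensin II, 0.924 and 0.851. No difference among these 8 was called, with differences between −0.104 and 0.690. They were chosen for a large effect in both series, which favours genes with similar effects, so this is no test of likeness. Mmp3 kept its call in both series with any 1 sample left out. The series 1 calls were lost without control 1 or control 2 for Chl1 (adjusted p = 0.12 to 0.181) and Cxcl5 (0.0848 to 0.138), without control 1 for Ace (0.0779), without control 1, control 2, let-7e 1 or let-7e 2 for Ccl8 (0.0613 to 0.14), and without any 1 of the 6 samples for Crocc2 (0.0559 to 0.323). The series 2 calls were lost without control 4 for Chl1 (0.12), Cxcl5 (effect 1.02, adjusted p = 0.295, against 2.64 without control 3), Mgp (0.0528) and Ace (0.163), without control 3 or control 4 for Mmp13 (0.121 to 0.15), and without control 3, control 4, let-7d 3 or let-7d 4 for Crocc2 (0.0694 to 0.321).

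Genes that fell in both series included contractile, matrix and growth factor pathway genes. H19, an imprinted long noncoding RNA, was at 22.4 and 24.6 CPM in the series 1 controls and at 7.63, 5.99, 6.62 and 8.61 CPM with mimic, and at 49.2 and 40.5 against 22.2, 17.0, 26.1 and 17.6 CPM in series 2. It fell by 1.71 (SE 0.171, adjusted p = 2.82e-05) and by 1.11 (SE 0.141, adjusted p = 0.00025), and the difference of 0.606 (SE 0.226) had an adjusted p of 0.285. Pappa, a protease that frees IGF from its binding proteins, was at 76.2 and 78.5 against 32.0 to 41.0 CPM in series 1 and at 100.1 and 154 against 47.8 to 75.0 CPM in series 2. It fell by 1.12 and 1.03 with a difference of 0.0851 (SE 0.226). The groups of both genes were apart in both series, as the naming rule required. Acta1, the skeletal muscle actin, fell by 1.58 and 1.17, the collagen gene Col8a2 by 1.30 and 1.10, the heparin-binding growth factor gene Ptn by 1.77 and 1.07, and the matrix proteoglycan gene Aspn by 1.10 and 1.00. Megf10, a receptor for engulfment, fell by 0.980 and 1.21, and Itih4, an acute-phase protein gene, by 1.05 and 0.952. H19, Col8a2, Ptn and Pappa kept their calls in both series with any 1 sample left out. Without control 1 the series 1 calls of Aspn (effect −0.566, adjusted p = 0.0726) and Megf10 (0.181) were lost. Without control 4 the series 2 calls of Acta1 (effect −0.733, adjusted p = 0.126) and Megf10 (0.204) were lost, and that of Itih4 was lost without control 3, control 4 or let-7d 3 (0.0527 to 0.132).

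The naming rule took the 10 largest positive differences, in which the effect was higher in series 2 than in series 1. Anxa8, an annexin that binds phospholipid, was at 9.86 and 8.00 CPM in the series 1 controls and at 4.91, 3.77, 4.07 and 4.33 CPM with mimic. In series 2 it was at 28.3 and 31.4 against 27.7, 27.0, 32.0 and 29.2 CPM. The groups were apart in series 1 and overlapped in series 2, with effects of −1.10 and −0.0391 and a difference of 1.06 (SE 0.159, adjusted p = 0.0127). The naming rule required groups apart in at least 1 series of every gene named for its large difference. Cebpb, a transcription factor that starts the fat cell programme and answers stress, was at 202 and 219 CPM against 204, 215, 211 and 227 in series 1, and at 105 and 93.0 against 173, 161, 157 and 150 in series 2. It rose by 0.695 in series 2, had an effect of 0.0266 in series 1, and had a difference of 0.668 (SE 0.0992, adjusted p = 0.0122). The call of Anxa8 was lost without control 3 (0.0585), and that of Cebpb without control 2 (0.0735) or control 4 (0.059).

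Both metallothionein genes, whose products bind zinc and copper, rose in series 2 and were not called in series 1. Mt2 was at 32.1 and 42.6 CPM in the series 1 controls and at 47.2, 48.6, 45.8 and 46.5 CPM with mimic, and at 50.6 and 44.5 against 133, 99.2, 137 and 108 CPM in series 2. The difference was 0.985 (SE 0.176, adjusted p = 0.0304). Mt1 had effects of 0.150 and 1.07 and a difference of 0.923 (adjusted p = 0.0269); the genes are close copies, so reads may be shared between them. Nol3, an inhibitor of cell death, had 0.142 and 0.852, a difference of 0.710 (adjusted p = 0.029). Apln, which encodes the peptide hormone apelin, had −0.258 and 0.490, a difference of 0.748 (adjusted p = 0.0323). Each of these 4 calls was lost without control 2, control 3 or control 4, or without some mimic samples: 7 of the 12 single omissions ended the call of Mt2 (adjusted p = 0.0572 to 0.132), 6 that of Mt1 (0.0501 to 0.115), 7 that of Nol3 (0.0549 to 0.112) and 8 that of Apln (0.0652 to 0.11). None held without let-7d 2, let-7e 1 or let-7e 2, and Mt2, Nol3 and Apln were lost without let-7d 1, and Apln without let-7e 4.

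The other 4 genes with a positive difference fell in series 1. Ak4, a mitochondrial adenylate kinase, was at 39.4 and 57.9 CPM in the series 1 controls and at 23.5, 24.3, 23.7 and 25.5 CPM with mimic, and at 32.3 and 33.7 against 32.3, 30, 44.2 and 32.1 CPM in series 2. It fell by 0.992 in series 1, had an effect of 0.0766 in series 2, and had a difference of 1.07 (SE 0.203, adjusted p = 0.0424). Ddit4, an inhibitor of the growth kinase mTORC1, was at 116 and 171 against 96.1, 90.8, 106 and 103 CPM in series 1 and at 95.6 and 95.6 against 152, 115, 140 and 126 CPM in series 2. It was called in opposite directions, −0.535 (adjusted p = 0.00954) and 0.478 (adjusted p = 0.0343), with a difference of 1.01 (SE 0.174, adjusted p = 0.0271). Ndrg1, a stress and differentiation gene, fell by 0.873 in series 1 and had an effect of −0.160 in series 2, a difference of 0.713 (adjusted p = 0.0323). Cd14, a co-receptor for bacterial lipopolysaccharide, was at 8.68 and 9.53 against 6.57, 5.40, 5.42 and 4.07 CPM in series 1 and at 4.40 and 4.25 against 6.99, 5.98, 5.66 and 6.23 CPM in series 2, a difference of 1.29 (SE 0.215, adjusted p = 0.0269). In Ak4, Ddit4 and Ndrg1 control 2 was the highest sample of series 1, and without it the differences were 0.786 for Ak4, 0.723 for Ddit4 and 0.526 for Ndrg1, none called (adjusted p = 0.0888 to 0.128). These 3 calls were also lost without let-7d 1, let-7d 2, let-7e 1, let-7e 2, control 3, control 4 or let-7e 4 (0.0504 to 0.127). The call of Cd14 was lost without control 2, let-7d 2, let-7e 1, control 3, control 4 or let-7e 4 (0.0504 to 0.0886).

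Of the 10 largest negative differences, 5 were of genes that fell in series 2. Aldh3b2, an aldehyde dehydrogenase, was at 82.9 and 92.7 CPM in the series 1 controls and at 60.3, 60.9, 62.8 and 53.8 CPM with mimic. In series 2 it was at 11.1 and 9.16 against 3.21, 2.41, 2.98 and 2.71 CPM. It fell in both series, by 0.560 and 1.84, with a difference of −1.28 (SE 0.147, adjusted p = 0.00286), and this call held with each of the 12 samples left out, at −1.40 to −1.13. Prlr, the prolactin receptor, was at 45.6 and 48.6 against 41.3, 47.6, 41.3 and 38 CPM in series 1 and at 11.2 and 8.10 against 3.7, 2.89, 4.14 and 3.48 CPM in series 2. Its effects were −0.160 and −1.43, with a difference of −1.27 (SE 0.184, adjusted p = 0.0122), lost without control 3 (difference −1.01, adjusted p = 0.0606). Thrsp, a promoter of fat synthesis, was at 149 and 131 against 94.9, 94.5, 99.3 and 81.4 CPM in series 1 and at 10.4 and 7.08 against 2.91, 3.09, 2.98 and 1.70 CPM in series 2. It fell by 0.595 and 1.70, a difference of −1.11 (SE 0.218, adjusted p = 0.0488). Plbd1, a phospholipase B-like protein gene, had −0.236 and −1.19, a difference of −0.950 (adjusted p = 0.0425), and Bche, the plasma cholinesterase, was called in opposite directions, 0.331 and −0.547, a difference of −0.878 (SE 0.136, adjusted p = 0.0157). In each of these 5 genes the controls of series 2 lay below those of series 1, as did the summed adipocyte markers, and the part of the culture's fat cell content in the difference was not tested. The call of Bche was lost without control 2, control 3 or control 4 (0.059 to 0.0735), and that of Thrsp without control 2, let-7d 1, let-7d 2, let-7e 1, let-7e 2, control 3, let-7d 3, let-7d 4 or let-7e 4 (0.055 to 0.184). That of Plbd1 held only without let-7d 3 or let-7e 3, with adjusted p = 0.0516 to 0.154 under the other 10 omissions, which are controls 1, 2, 3 and 4, let-7d 1, 2 and 4 and let-7e 1, 2 and 4.

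The other 5 negative differences were of genes that rose in series 1. Tnfsf15, a cytokine of the tumour necrosis factor family, was at 25.1 and 21.8 CPM in the series 1 controls and at 45.5, 48.6, 45.9 and 51.3 CPM with mimic, and at 93.8 and 106 against 89.6, 109, 97.8 and 118 CPM in series 2. It rose by 1.02 in series 1, had an effect of 0.0539 in series 2, and had a difference of −0.968 (SE 0.143, adjusted p = 0.0122). Oas2, an antiviral synthetase, was at 25.8 and 22.4 against 31.0, 43.5, 42.4 and 42.2 CPM in series 1 and at 38.8 and 37.7 against 30.4, 31.7, 35.9 and 30.9 CPM in series 2. The mimic samples lay above both controls in series 1 and below both in series 2, with effects of 0.723 and −0.246 and a difference of −0.968 (SE 0.159, adjusted p = 0.0269). Trim30a, an interferon-induced regulator, rose by 0.973 in series 1 with 0.0422 in series 2, a difference of −0.931 (adjusted p = 0.0323). Nlrc5, an activator of MHC class I genes, rose by 0.435 with −0.314 in series 2, a difference of −0.749 (adjusted p = 0.0271), and Npnt, a matrix ligand of integrins, rose by 0.948 with 0.167, a difference of −0.782 (adjusted p = 0.0492). The call of Tnfsf15 was lost without control 2 (0.0759) or control 4 (0.059). Without control 2, control 3, control 4 or let-7e 4 the calls of Oas2, Trim30a, Nlrc5 and Npnt were all lost, and some were lost without other samples: Oas2 and Trim30a without let-7d 2, let-7e 1 or let-7e 2, Trim30a without let-7d 4, Nlrc5 without let-7e 1, and Npnt without let-7d 1, let-7d 2, let-7e 2 or let-7d 3 (adjusted p = 0.0504 to 0.15 over the 4 genes).

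**Figure D3:**
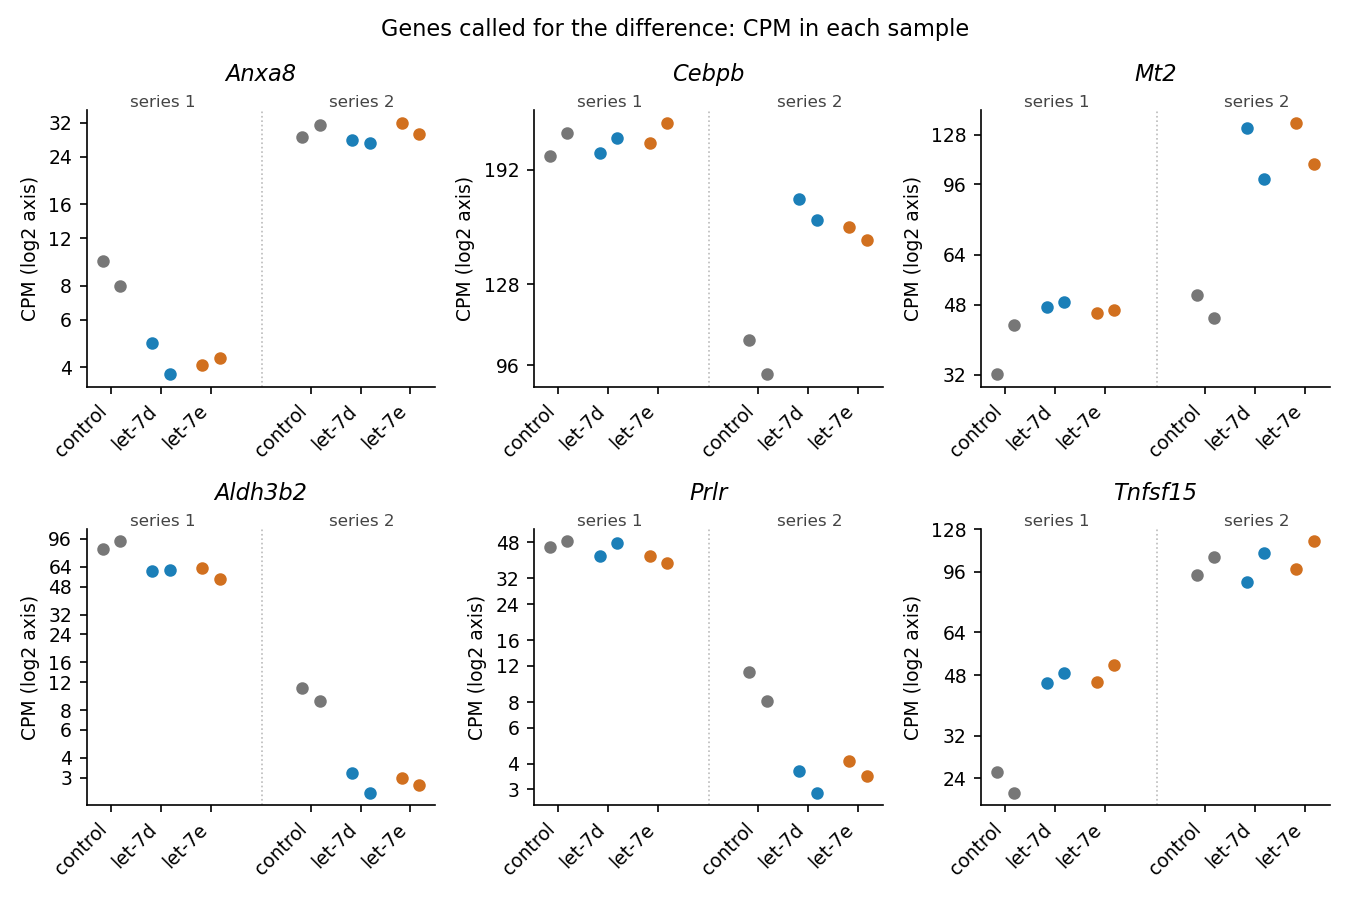
CPM on a log2 axis (vertical) of 6 genes called for the difference in each of the 12 samples (horizontal), 2 per arm and series; grey is control, blue let-7d and orange let-7e. The mimic samples of Anxa8 and Tnfsf15 leave the controls in series 1, and those of Cebpb and Prlr leave the controls in series 2. Those of Mt2 lie above and those of Aldh3b2 below the controls in both series, farther in series 2.

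The other 16 genes called for the difference had smaller differences or fell outside the naming rule. Ftl1, the ferritin light chain, fell in both series, by 0.929 and 0.491, from 960 and 1010 CPM to between 504 and 529 in series 1 and from 1150 and 1220 to between 810 and 869 in series 2, a difference of 0.438 (SE 0.0838, adjusted p = 0.0425). It is named under the antioxidant list, and many near-copies of it in the genome make its counts uncertain. Avpr1a, a vasopressin receptor named after its values were seen, had −0.414 and 0.210, a difference of 0.625 (adjusted p = 0.0122). The largest differences, −4.31 for Gm8430 and −1.89 for Gm4070, are of predicted genes whose reads may be shared with copies, and −1.77 for Slc6a13, a GABA transporter, rests on 0.401 to 0.696 CPM with mimic in series 2.

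Interferon response genes rose in series 1 and did not rise in series 2 by the calls. Their summed level was 2690 and 2320 CPM in the series 1 controls and 2870 to 3540 CPM with mimic. In series 2 it was 5350 and 4500 CPM in the controls and 4170 to 5530 CPM with mimic. The part of the control level in the difference was not tested. Of 42 measured members, 22 rose and none fell in series 1, with a median effect of 0.454, and in series 2 none rose, 1 fell and the median was −0.139. For the difference, 41 of 42 values were negative, with a median of −0.602, and Oas2 was the 1 member called, while 37 had an unadjusted p under 0.05 and DESeq2's Wald test called 9 lower and 1 higher. Over all genes the share higher was 5.11% in series 1 and 2.09% in series 2, and the share lower 6.92% and 3.42%. The median difference over all genes was −0.00793. An unadjusted p under 0.05 for the difference in edgeR was found for 1958 of all 15754 genes. Mx1, an antiviral GTPase, was at 1.70 and 0.417 CPM in the series 1 controls and at 6.77, 4.27, 2.11 and 3.76 CPM with mimic, an effect of 1.81 (adjusted p = 0.0194), and at 5.79 and 4.29 against 4.69, 3.41, 5.66 and 3.91 CPM in series 2, an effect of −0.182. Its difference of −2.0 (SE 0.574) had an adjusted p of 0.162. Stat2, which carries the interferon signal to the nucleus, was the member called lower in series 2, at −0.305 against 0.231 in series 1, and its difference of −0.536 had an adjusted p of 0.0735. Ifi206, of the interferon-inducible p200 family, and Phf11b were next by effect in series 1, at 1.77 and 1.58, but the call of Ifi206 was lost without any 1 of the 6 samples (adjusted p = 0.0546 to 0.235) and that of Phf11b without control 1 or control 2 (0.0961 to 0.107). Ifi27 was the member with a positive difference, 0.416 (adjusted p = 0.109).

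The level of the interferon list in a sample, the median log2 deviation of its genes from the controls of the same series, was 0.274, 0.584, 0.464 and 0.604 in the series 1 mimic samples and −0.276, −0.269, 0.131 and −0.183 in those of series 2. The controls lay at 0.112 and −0.112 and at 0.117 and −0.117. The mimic samples of series 1 were all above their controls, and let-7e 3 of series 2 was above its controls while the other 3 were below. Without control 2, which was the lower control of series 1, 4 members were called higher in place of 22 and the median was 0.304; 11 were called without let-7d 2, 13 without let-7e 1 and 13 without let-7e 2. Without control 2 the call of Mx1 was lost (adjusted p = 0.15), and without control 1 its effect was 3.27. Without let-7e 3, 17 members were called lower for the difference, and without control 1, 13. The median difference ran from −0.749 to −0.474 over the 12 omissions.

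Promoters of the interferon list were searched for the core of the interferon-stimulated response element, GAAANNGAAA on either strand, in the RefSeq windows from 250 bases before to 50 after each gene start (GRCm38.p6). It was found in 16 of the 31 members with a window, or 51.6%, and in 3.84% of the 11240 tested genes with one. Of the 15 members called higher in series 1 that have a window, 4 held it, and of the 16 not called there, 12 did. The windows around it are shown for Rsad2, Ifit3 and Gbp7, which are among the 4, with the match in capitals; they are named for their promoters and not by the naming rule.
Rsad2: ctggtccaacTTTCATTTTCagaaaacaga
Ifit3: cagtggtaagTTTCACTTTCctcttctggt
Gbp7: gtgtgtgcagTTTCAGTTTCagttctccat
They lie at chr12:26456553-26456582 on the minus strand, chr19:34583363-34583392 on the plus strand and chr3:142530273-142530302 on the plus strand, and the match is the reverse complement of the searched letters in all 3. Rsad2, an antiviral enzyme, had effects of 0.907 in series 1 and −0.494 in series 2, Ifit3 1.01 and −0.279, and the GTPase gene Gbp7 0.545 and −0.273, with differences of −1.40, −1.29 and −0.817 (adjusted p = 0.115, 0.183 and 0.109).

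Glycolysis genes fell in series 1, and few were called in series 2. Of 21 glycolysis genes, 17 fell and 1 rose in series 1, with a median effect of −0.531. In series 2, 1 was lower and none higher, with a median of −0.0475. Shares of all genes were 6.92% lower and 5.11% higher in series 1, and 3.42% and 2.09% in series 2. The difference was positive for 19 of 21, with a median of 0.447. No member was called for the difference by edgeR or limma-voom, and DESeq2's Wald test called 9. EdgeR called 0.229% of all genes for the difference. In edgeR 14 of 21 had an unadjusted p under 0.05, against 1958 of all 15754 genes. Aldoc, an aldolase, was at 9.58 and 11.5 CPM in the series 1 controls and at 4.78, 5.76, 4.47 and 5.21 CPM with mimic, and at 4.96 and 3.76 against 4.12, 4.45, 4.98 and 3.98 CPM in series 2, with effects of −1.05 and 0.00845 and a difference of 1.06 (SE 0.215, adjusted p = 0.0547). Slc16a3, a lactate exporter, was at 149 and 194 against 71.0 to 79.8 CPM in series 1 and at 130 and 136 against 90.7 to 153 CPM in series 2, a difference of 0.989 (SE 0.210, adjusted p = 0.0692). Aldoc and Slc16a3 had mimic samples apart from the controls in series 1 and overlapping them in series 2.

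Of 18 hypoxia response genes, which share Slc2a1 with the glycolysis list, 12 fell in series 1 with a median effect of −0.432. In series 2 none fell, 1 rose and the median was −0.0409. Of all genes, 6.92% fell and 5.11% rose in series 1, and 3.42% fell and 2.09% rose in series 2. All 18 differences were positive, with a median of 0.471, and Ddit4 and Ndrg1 were called, against 0.114% of all genes. The list level was −0.528, −0.430, −0.455 and −0.469 in the series 1 mimic samples and −0.0605, −0.126, 0.199 and −0.0359 in those of series 2, and the glycolysis level was −0.559 to −0.479 and −0.198 to 0.158. The controls of series 1 were themselves apart, at −0.167 and 0.167 for hypoxia and −0.129 and 0.129 for glycolysis, with control 2 the higher, while those of series 2 were within 0.0192 of their mean for hypoxia. Without control 2, 5 hypoxia genes and 10 glycolysis genes were called lower in series 1, with medians of −0.315 and −0.375. Without control 1, 8 hypoxia genes and 7 glycolysis genes were called higher for the difference. The core letters of the hypoxia response element, ACGTG on either strand, were in 12 of the 15 hypoxia list promoters with a window, or 80.0%, and in 28.6% of all. They were in 7 of the 10 members called in series 1 and in 5 of the 5 not called.

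**Figure D4:**
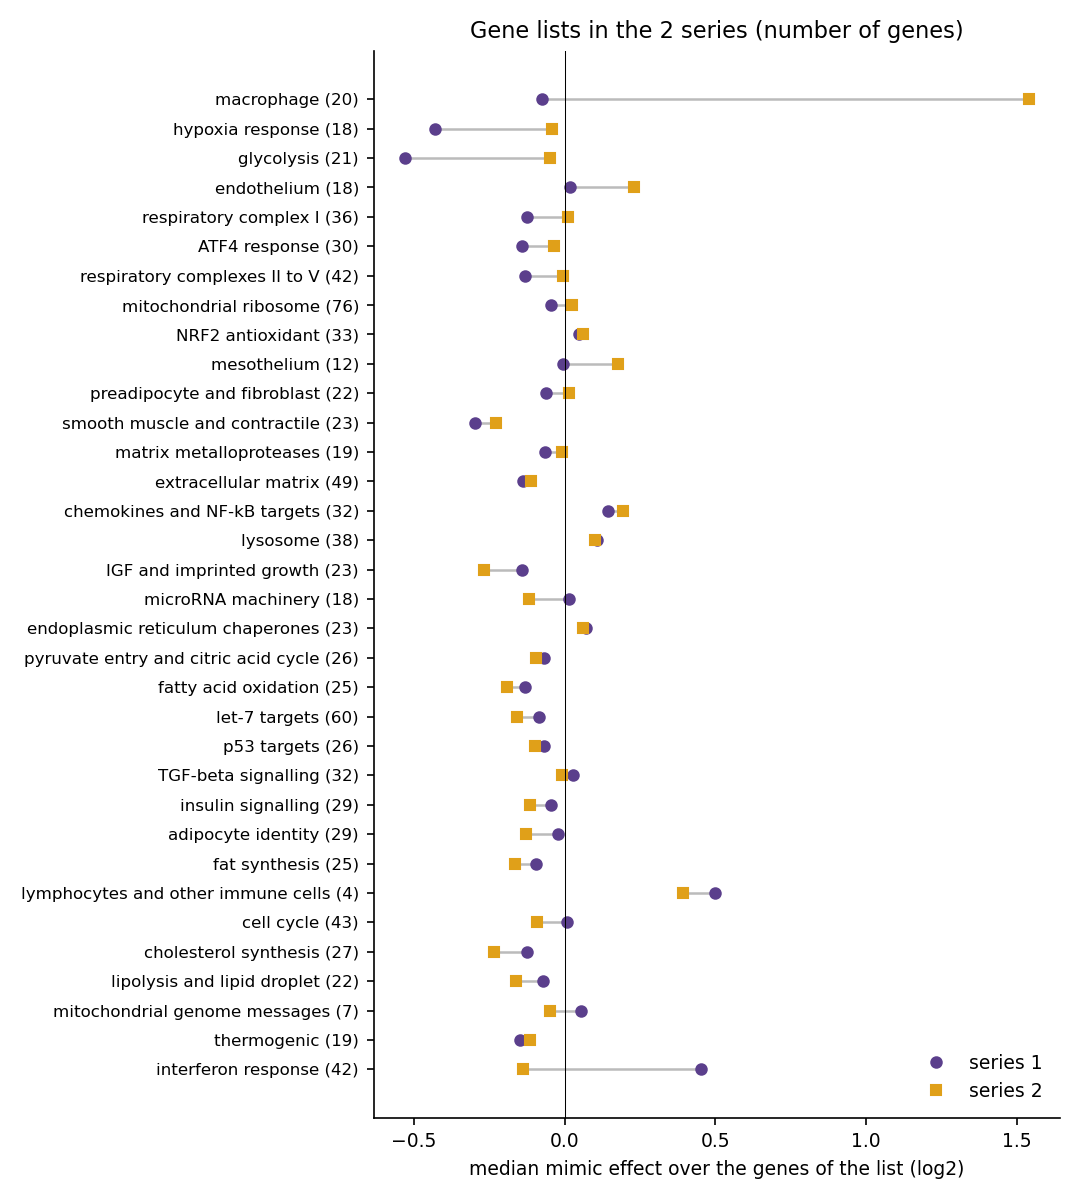
Median log2 mimic effect (horizontal) of each of the 34 gene lists (vertical, with the number of genes) in series 1 (circles) and series 2 (squares), sorted by the median difference. The macrophage, hypoxia, glycolysis and interferon lists have the widest gaps, and the extracellular matrix, lysosome and chaperone lists have nearly equal medians.

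Macrophage markers were low and uneven in series 2. Of 22 listed genes 20 were measured, with Cx3cr1 and Aif1 not analysed here, and none was under 1 CPM in all samples. Their summed level was 523 and 527 CPM in the series 1 controls, 384 to 579 CPM with mimic, 42.4 and 64.8 CPM in the series 2 controls and 87.2 to 226 CPM with mimic. In series 1, 2 members fell and the median was −0.0755, and in series 2, 4 rose and the median was 1.54. Of all genes, 6.92% fell in series 1 and 2.09% rose in series 2. All 20 differences were positive, with a median of 1.63, and Cd14 was the 1 called. The list level was 1.83 in let-7d 3 and 0.541, 0.525 and 0.933 in the other series 2 mimic samples, with controls at 0.283 and −0.283, so that 1 library stood above the rest. Without let-7d 3 the median in series 2 was 0.975, and without control 4, the control with fewer macrophage counts, it was 0.923 and no member was called; 6 were called without let-7d 4 and 12 without let-7e 3. Csf1r, the receptor that keeps macrophages alive, was at 24.0 and 27.7 against 15.7 to 21.1 CPM in series 1 and at 7.40 and 7.61 against 8.71 to 10.8 CPM in series 2, with effects of −0.480 (adjusted p = 0.00959) and 0.341 (adjusted p = 0.125) and a difference of 0.822 (SE 0.166, adjusted p = 0.0547).

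The 4 genes with the largest rise in series 2 by the naming rule are genes that macrophages express. Arg1, an arginine-degrading enzyme, was at 0.677 and 0.777 CPM in the controls and at 7.94, 2.61, 2.0 and 3.21 CPM with mimic, and Mmp12, the macrophage elastase, was at 9.62 and 3.89 against 73.5, 23.6, 13.6 and 27.1 CPM. The chemokine gene Ccl6 rose by 2.23 and the Fc receptor gene Fcgr3 by 2.08. Let-7d 3 was the highest sample for Arg1 and Mmp12, as for the marker list. None of the 4 was called for the difference, at 2.78 for Arg1 (SE 0.673, adjusted p = 0.112), 2.0 for Mmp12, 1.69 for Ccl6 and 2.13 for Fcgr3. The part of the macrophage marker level in these effects was not tested. Their series 2 calls were lost without control 4 (adjusted p = 0.177 for Arg1, 0.261 for Mmp12, 0.234 for Ccl6, 0.202 for Fcgr3), and those of Arg1 (0.117) and Fcgr3 (0.057) also without control 3.

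**Figure D5:**
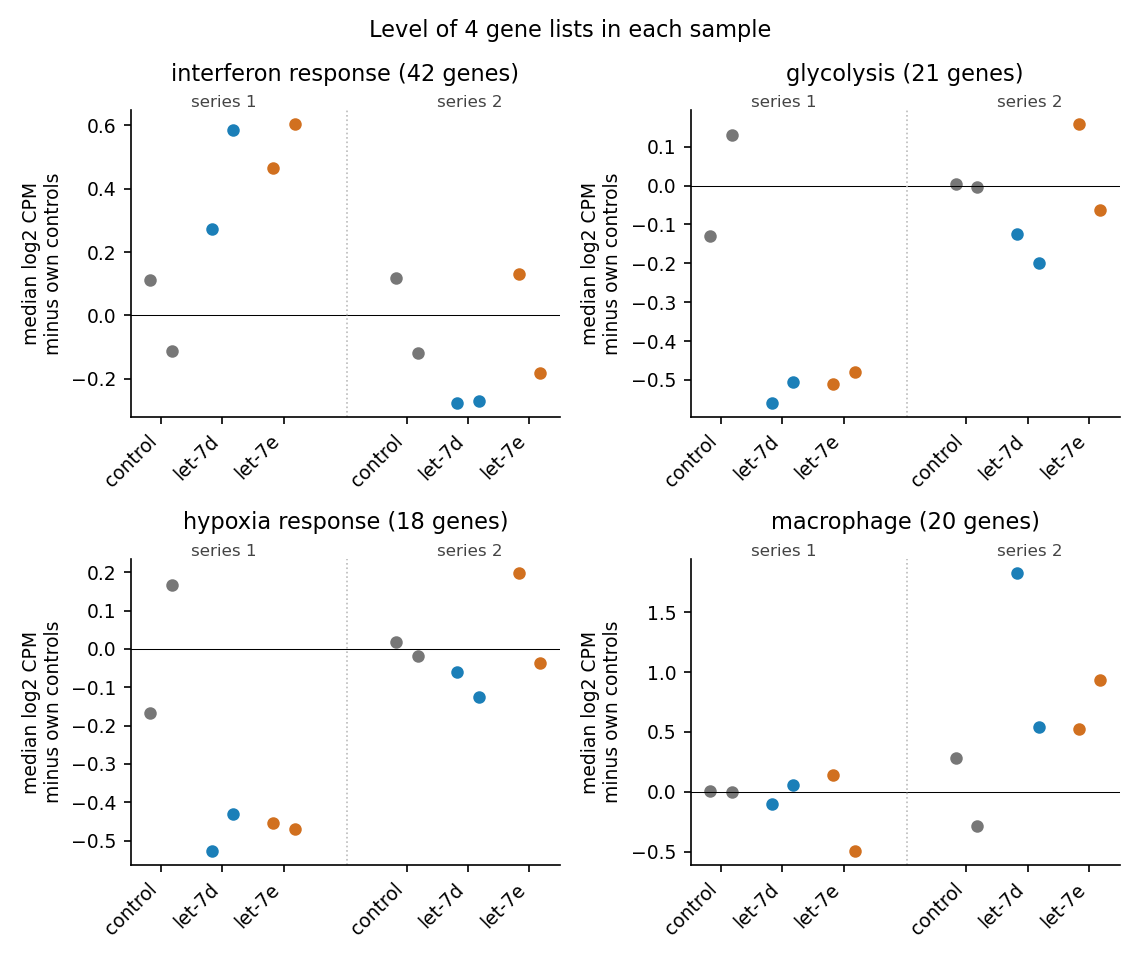
Level of 4 gene lists (vertical, median log2 CPM of the list's genes minus the mean of the controls of the same series) in each of the 12 samples (horizontal). The interferon, glycolysis and hypoxia levels leave the controls in all 4 mimic samples of series 1, and the macrophage level is above both controls in all 4 mimic samples of series 2, highest in let-7d 3 at 1.83.

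Matrix, contractile, lysosome and chemokine genes had medians of the same sign in both series. Extracellular matrix genes had 17 lower and 2 higher of 49 in series 1 and 8 lower and 1 higher in series 2, with medians of −0.139 and −0.113, and 41 of 49 had the same sign in both. Smooth muscle and contractile genes had 10 of 23 lower and then 5, with medians of −0.299 and −0.227. Lysosome genes, which run the cell's degradation, had 5 higher and 1 lower of 38 and then 6 higher, with medians of 0.106 and 0.102, and 33 had the same sign. Chemokines and NF-kB targets had 7 higher and 1 lower of 32 and then 8 higher and 2 lower. For all genes the shares were 6.92% lower and 5.11% higher in series 1, and 3.42% and 2.09% in series 2. Without control 4, no lysosome gene was called higher and no contractile gene lower in series 2, and 3 chemokine and NF-kB genes were higher. Without let-7e 3, 13 lysosome genes were higher in series 2 and 9 in series 1, and without let-7e 4, 3 in series 2. Lysosome genes higher in series 1 numbered 2 without control 2 and 3 without let-7e 1. Contractile genes lower in series 2 numbered 8 without control 1, 3 without let-7d 1, let-7d 2 or let-7e 2, and 2 without control 3, let-7d 3 or let-7e 4, and 4 were lower in series 1 without control 1. Matrix genes lower in series 1 numbered 10 without control 2, and in series 2 5 without control 3 or control 4. Chemokine and NF-kB genes higher in series 1 numbered 2 without control 1 and 4 without control 2. In all 4 lists no member was called for the difference by edgeR, limma-voom or DESeq2. EdgeR called 0.229% of all genes, so the lack of calls in lists this short does not show like responses. Members at an unadjusted p under 0.05 in edgeR numbered 5 of 49, 2 of 23, 5 of 38 and 5 of 32. Of all 15754 genes, 1958 were at such a p.

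A minority of respiratory chain genes were called lower in series 1, where most effects were below 0. In series 1, 38 of 42 effects were below 0 for complexes II to V and 34 of 36 for complex I. In series 2, 23 and 15 were. Among all genes tested, 6.92% were called lower in series 1 and 3.42% in series 2. Of 42 genes of respiratory complexes II to V, which carry electrons and make ATP, 13 fell in series 1, and in series 2 1 fell and 1 rose, with medians of −0.131 and −0.00713, and 36 differences were positive with a median of 0.103. Of 36 complex I genes, 6 fell and 1 rose in series 1 and 1 rose in series 2, with medians of −0.127 and 0.0122. Of their differences, 35 were positive, with a median of 0.124. Without control 2, 5 genes of complexes II to V and 1 of complex I were called lower in series 1. For complexes II to V the count was 7 without control 1 or let-7d 1 and 8 without let-7e 1 or let-7e 2, and for complex I it was 10 without control 3 or control 4. Uqcrq, a complex III subunit, had −0.313 and 0.0711, and Ndufb2, a complex I subunit, −0.293 and 0.127, each with an adjusted p of 0.0749 for the difference. Cholesterol synthesis leaned the other way, with 5 of 27 genes lower in series 1 and 12 in series 2, medians of −0.124 and −0.235, and 23 negative differences; Hmgcs1, an early enzyme of the pathway, had 0.000558 and −0.366 (difference −0.367, adjusted p = 0.243). In series 2, 2 cholesterol genes were called lower without control 3 and 6 without control 4, and 15 were lower with let-7d and 1 with let-7e. In series 1 the count was 1 without control 2, 3 without control 1, let-7d 1 or let-7d 2, and 8 without let-7d 3. Fat synthesis genes had 4 of 25 lower and then 6 (1 in series 1 without control 2, 2 without let-7d 1 or let-7d 2, and 2 in series 2 without control 3 or control 4), and Thrsp was called for the difference. By edgeR no member of the other 3 lists was called for the difference, against 0.229% of all genes. For complexes II to V, complex I and cholesterol synthesis, DESeq2's Wald test called 3, 2 and 0. In that order, 11 of 42, 10 of 36 and 4 of 27 had an unadjusted p under 0.05 in edgeR, against 1958 of all 15754 genes.

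Lists of fat cell function had medians below 0 in both series with all samples in, and several turned in sign without 1 control. Adipocyte identity genes had medians of −0.0228 and −0.129, with 1 of 29 higher in series 1 and 3 lower and 1 higher in series 2, and Cebpb was the 1 called for the difference. Lipolysis genes had −0.0734 and −0.163, with none called in series 1 and 4 of 22 lower in series 2, and thermogenic genes −0.147 and −0.117, with 5 and then 4 of 19 lower. Fatty acid oxidation genes had −0.132 and −0.192, with 4 of 25 lower in each series, and genes of pyruvate entry and the citric acid cycle −0.0694 and −0.0948, with 4 and 3 of 26 lower. Insulin signalling genes had −0.0443 and −0.117, with 7 lower and 1 higher of 29 and then 4 lower. With each mimic by itself in series 2, 9 lipolysis genes were lower with let-7d and 1 with let-7e. In the same order there were 9 and 1 for adipocyte identity, 10 and 2 for fat synthesis and 4 and 3 for thermogenic genes. Fatty acid oxidation had 7 and 3, the citric acid cycle list 7 and 2, insulin signalling 5 and 3, and all genes 829 and 246. Whether the mimics differ here was not tested. Among all genes tested, 6.92% were called lower and 5.11% higher in series 1, and 3.42% and 2.09% in series 2. Without control 2 the series 1 medians were 0.0703 for adipocyte identity, 0.0423 for lipolysis, 0.0571 for thermogenic genes, 0.00908 for the citric acid cycle list and 0.037 for insulin signalling, and without control 3 the series 2 median of adipocyte identity was 0.112. The counts moved too: without control 2, none of the fatty acid oxidation genes, 1 of the citric acid cycle list and 3 thermogenic genes were called lower in series 1. Without control 1, 3 insulin signalling genes were called lower in series 1, and without let-7e 1, 4. In series 2, 1 lipolysis gene was called lower without control 3 or control 4, 2 thermogenic genes without control 4, and 1 adipocyte identity gene without control 3 against 8 without let-7e 3. Omitting control 1 raised the fatty acid oxidation count to 7 in each series. Elovl3, an enzyme that lengthens fatty acids, fell by 1.34 in series 2, a call lost without control 4 (adjusted p = 0.107).

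Among stress and growth lists, genes of the ATF4 response had medians of −0.142 and −0.0359, with 5 of 30 lower in series 1 and 2 higher and 1 lower in series 2, and its 2 difference calls were Cebpb and Ddit4. NRF2 antioxidant genes had 0.0459 and 0.061, with 2 higher and 3 lower of 33 and then 6 higher and 1 lower; Ftl1 was called for the difference. Genes of IGF signalling and imprinted growth had −0.142 and −0.267, with 7 of 23 lower and then 6 lower and 2 higher. Targets of p53 had −0.0676 and −0.099, with 8 lower and 3 higher of 26 and then 6 lower and 2 higher. Cell cycle genes had 0.00842 and −0.0906, and 35 of 43 differences were negative. Genes of the microRNA machinery had 0.0134 and −0.119, with 3 of 18 lower in each series and 2 higher in series 1. Shares over all genes were 6.92% lower and 5.11% higher in series 1, and 3.42% and 2.09% in series 2. Without control 4, none of the p53 or microRNA machinery genes was called lower in series 2, 1 antioxidant gene was higher, and the ATF4 median was 0.0529. Without let-7d 3, 3 p53 genes and 1 microRNA machinery gene were lower there, 3 antioxidant genes were higher and the ATF4 median was 0.000616, and without control 3, 3 IGF and imprinted genes were lower. The antioxidant count was also 3 without let-7e 1 or let-7d 4, and the microRNA machinery count 1 without let-7d 4 or let-7e 4. In series 1, 3 ATF4 genes were lower without control 1, let-7d 1, let-7d 2 or let-7e 1, 4 p53 genes without control 1 and 5 without let-7d 1 or let-7d 2. The series 1 medians turned below 0 for the cell cycle without control 2 (−0.0222) or let-7d 1 (−0.0102) and for the microRNA machinery without control 1 (−0.0432) or let-7e 2 (−0.00161).

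Markers of other cell types were summed in each sample. Endothelial markers summed to 599 to 617 CPM in the series 1 controls, 539 to 610 with mimic, 454 to 465 in the series 2 controls and 445 to 582 with mimic. Of these markers, 1 of 18 fell in each series, against 6.92% and 3.42% of all genes. Preadipocyte and fibroblast markers summed to 6410 to 6730, 6340 to 6520, 6960 to 7520 and 7270 to 7500 CPM in the same order. Mesothelial markers lay between 114 and 142 CPM in all samples. Of 21 lymphocyte and other immune markers 4 were measured, with the T and B cell markers not analysed here, at 8.55 to 18 CPM in sum.

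Each mimic was also taken by itself, in a fit in which both had their own mean; they share the controls. The interferon median was 0.423 with let-7d and 0.513 with let-7e in series 1, and −0.293 and −0.0263 in series 2. The glycolysis median was −0.552 and −0.510, then −0.155 and 0.0382, and the hypoxia median −0.484 and −0.450, then −0.0923 and 0.0601. The macrophage median was −0.0156 and −0.118, then 1.89 and 0.987. For the difference between series, 10 genes were called higher and 28 lower with let-7d, and 1 was called lower with let-7e. Aldh3b2 had differences of −1.31 with let-7d (adjusted p = 0.015) and −1.24 with let-7e (adjusted p = 0.0519), and Npnt −0.923 (adjusted p = 0.00631) and −0.620 (adjusted p = 0.0901). Whether let-7d and let-7e differ in these contrasts was not tested.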

How the data were processed

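RNA-seq of 12 samples came as a deposited table of raw counts, whole numbers for each Ensembl gene, per the file headers. Per the submitters' processing notes, STAR and the GRCm38.p6 build were used; for the counter, its strand setting and versions the sources used here say nothing, so overlapping genes and close copies cannot be told apart. The deposited table had been filtered on CPM, per its name. A second deposited table, named as RPKM, was not used because its values imply gene lengths that differ between samples. The runs of sample identifiers were taken as series 1 and series 2. Members, 34 gene lists, tests and the naming rule were chosen with earlier results of these data known.

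Counts were scaled by TMM and fitted with edgeR 4.0.16 (R 4.3.3): 1 quasi-likelihood model with 4 means (control and mimic in each series), 12 samples and 8 residual degrees of freedom, two-sided, Benjamini-Hochberg over 15754 genes; filterByExpr removed 0. Symbols matched 15736 genes. SE is the log2 effect over the root of F. Sample levels use log2(CPM + 0.5). The model was tested on simulated data. Named genes had an average log2 CPM of at least 2 and no predicted name: the 10 largest called differences each way, with the 4 mimic samples on 1 side of both controls in at least 1 series, the 8 largest shared effects each way and the 4 largest effects each way per series, on 1 side in each series concerned, the 2 members per list with the smallest p for the difference (4 for let-7 targets), Dicer1 and Hmga2. Sites were sought in the longest 3' UTR of protein-coding transcripts (GENCODE vM21, GRCm38). Replicates differed by more than counting noise, the ratio of chi-square to its degrees of freedom being 2.37 to 10.2. Alternatives were DESeq2 1.42.0, limma-voom (limma 3.58.1), other scalings and filters, each mimic alone, a replicate block and each sample left out.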

Additional observations from a re-analysis of the deposited data

Results flagged for a closer look

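Of the 36 genes whose difference between the series passed the threshold (edgeR, adjusted p under 0.05), 20 are listed here, the 10 largest differences each way by the naming rule. The log2 difference, series 2 minus series 1, was 1.29 for Cd14, 1.07 for Ak4, 1.06 for Anxa8, 1.01 for Ddit4, 0.985 for Mt2, 0.923 for Mt1, 0.748 for Apln, 0.713 for Ndrg1, 0.710 for Nol3 and 0.668 for Cebpb. It was −1.28 for Aldh3b2, −1.27 for Prlr, −1.11 for Thrsp, −0.968 for Oas2, −0.968 for Tnfsf15, −0.950 for Plbd1, −0.931 for Trim30a, −0.878 for Bche, −0.782 for Npnt and −0.749 for Nlrc5.

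In 3 groups of 4 mimic samples, 1 sample stood apart from the other three by Dixon's criterion. Thrsp was at 1.70 CPM in let-7e 4, the lowest of the series 2 mimic samples. Oas2 was at 31.0 CPM in let-7d 1, the lowest of the series 1 mimic samples. The level of respiratory complexes II to V was 0.0732 in let-7e 3, the highest of the series 2 mimic samples. Chance alone sets apart about 1 in 20 groups, and 52 groups were looked at.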

How the results depend on the processing

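Counts of calls moved more than effects did. With let-7d samples only, 1237 genes were called in series 1, and with let-7e samples only, 816 in series 1, 287 in series 2, 166 the same way in both and 2 for the difference. With the 6 samples of each series fitted alone, 349 were called in series 2 and 242 the same way in both. The difference gave 57 calls with library totals only, 192 with DESeq2's Wald test and 63 with a mean for each mimic. Library totals raised the share of series 1 calls that were higher from 42.5% to 58.1% and lowered that of the difference from 50% to 33.3%. Leaving out 1 of the 6 samples of that series gave 1070 to 1595 calls in series 1 and 224 to 1200 in series 2. Counts of a series without a sample of the other series are not in these ranges. Leaving out 1 of all 12 samples gave 6 to 221 calls for the difference and 147 to 555 the same way in both. Median differences then ran from −0.749 to −0.474 (interferon), 0.326 to 0.563 (glycolysis), 0.389 to 0.641 (hypoxia), 1.16 to 2.36 (macrophage) and −0.0576 to 0.0103 (let-7 targets). The shift of genes with an 8-base site, against genes with neither, was taken without 1 of the 6 samples of the same series. It ran from −0.0734 to −0.0514 in series 1 and from −0.110 to −0.0680 in series 2. Among named genes, no called effect or difference reversed. The cause of these changes was not tested.

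Replicate numbers were not taken as pairs, since some correlations were near or below 0: deviations of same-numbered samples correlated at −0.123, −0.157 and 0.0222 in series 1 and at 0.416, 0.111 and 0.075 in series 2. With a replicate block, 1949 genes were called in series 1, 937 in series 2 and 51 for the difference. The block changed the sizes of these counts by less than 1.5 times. Precision is limited by 2 controls per series.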
